A study of Mus musculus with 11 samples.

Results

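The genes of cholesterol and fatty acid synthesis, with their regulators, were followed in mouse CD4 T cells that carried an empty retrovirus or 1 of 3 forms of the transcription factor FoxP3. The list held 35 genes, and a member was any probe set that the platform annotation gives exactly 1 of these symbols. This rule found 74 probe sets of 33 genes among 45101 probe sets of the array, of which 34958 have a single symbol. Acat2 and Nr1h2 had no such probe set, so only their promoters were examined here. By role, 14 probe sets of 6 genes belonged to the mevalonate steps, 24 of 11 genes to the steps from squalene to cholesterol, 12 of 6 genes to the control of SREBP, 17 of 6 genes to fatty acid synthesis and 7 of 4 genes to LXR and its targets.

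Cells make cholesterol from acetyl-CoA through mevalonate, squalene and lanosterol, and make fatty acids from the same precursor through acetyl-CoA carboxylase and fatty acid synthase. Both sets of enzymes are transcribed under SREBP, a membrane-bound factor that SCAP carries to the Golgi when sterols are low and that INSIG proteins hold back when sterols are high, whereas LXR senses oxysterols and raises efflux genes. T cells need both pathways to build membrane when they divide after activation.

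Naive CD4+ CD25- CD45RB high T cells of BALB/cA mice, taken from spleen and lymph nodes at an age the labels do not state, were stimulated with 0.5 µg/ml of anti-CD3e beside 10 ng/ml of IL-2, with irradiated (20 Gy) spleen cells that had been freed of T cells. They were spin-infected 24 h later with virus made from MIGR1, a vector that also carries GFP, and all groups were sorted on day 7 for CD4 and high GFP. Mock cells received MIGR1 without FoxP3 (3 arrays), and the others received mouse WT FoxP3 (3 arrays), A384T FoxP3 (3 arrays) or R397W FoxP3 (2 arrays). Both substitutions lie in the DNA-binding forkhead domain and are known from patients with IPEX, an inherited disease of regulatory T cells. FoxP3 was expressed from a retroviral promoter in cells cultured with IL-2, so its amount and timing were not those of natural regulatory T cells. Nothing in the labels ties each array to its own culture or mouse. The p-values therefore reflect how far these arrays scatter, and that scatter may be technical.

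Each value below is on the log2 scale and counted from the mock median of its probe set, so the deposited table holds no expression levels and defining markers of T cells could not be checked as levels. Array medians over all probe sets lay between -0.016 and 0.0022. The single Foxp3 probe set lay between -0.39 and 0.33 on all 11 arrays and did not separate the groups, and the sources used here do not state which part of the transcript it reads. Gpr83, a receptor gene known to be high in regulatory T cells, was at 5.11 to 6.32 on the WT and A384T arrays, at -0.46 to 0.11 on the mock arrays and at -0.46 to -0.18 on the R397W arrays (medians of its probe sets). Lists of B cell, macrophage and dendritic cell, granulocyte and mast cell, erythroid and platelet, and CD8 and NK cell markers had medians between -0.20 and 0.15 on every array. With limma none of their probe sets was called in WT or R397W over mock, and 1 was called in A384T over mock, Adgre1, which encodes the macrophage antigen F4/80. At 1451161_a_at Adgre1 read 0.00, 0.51 and -0.34 on mock, -0.57, -0.40 and -0.45 on WT, -1.07, -1.16 and -0.98 on A384T, and -0.07 and 0.31 on R397W, and it was lower in A384T than in mock (-1.13 ± 0.19, adjusted p = 0.0131) and than in R397W (adjusted p = 0.0241). With a block on the array number, explained below, Itga2b, an integrin gene of platelets, was also lower in WT (-0.51, adjusted p = 0.0261) and in A384T (-0.57, 0.0154) than in mock. A list of T cell genes had calls only with the block. Against mock, Cd4 1419696_at was lower in WT (-0.40, adjusted p = 0.0186). Cd247 was higher in WT at 1420716_at (0.43, 0.0487) and 1452539_a_at (0.53, 0.0167), and in A384T at 1420716_at (0.45, 0.0431). The part of these markers in the member results was not tested. In these bulk populations, fewer cells of a type and less RNA per cell cannot be told apart.

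Promoters of 4 members are printed because the results turn on Elovl6 and Mylip, because Fasn is the core enzyme of fatty acid synthesis, and because Hmgcs1 was the only member promoter with the sterol regulatory element searched. Each is the 250 bases before a RefSeq transcription start (GRCm38.p6), read 5′ to 3′ along the gene. Capitals mark matches to the sterol regulatory element core TCACNCCAC, the CCAAT box, the E-box CACGTG and the forkhead core GTAAACA, on either strand; GC boxes are left in lower case.
Elovl6 (chr3:129532136-129532385, + strand): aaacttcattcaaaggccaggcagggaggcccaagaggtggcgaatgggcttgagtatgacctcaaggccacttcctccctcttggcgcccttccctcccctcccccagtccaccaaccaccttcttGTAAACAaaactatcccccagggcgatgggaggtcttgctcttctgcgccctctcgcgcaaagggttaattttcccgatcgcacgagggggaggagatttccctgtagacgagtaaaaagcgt
Mylip (chr13:45389492-45389741, + strand): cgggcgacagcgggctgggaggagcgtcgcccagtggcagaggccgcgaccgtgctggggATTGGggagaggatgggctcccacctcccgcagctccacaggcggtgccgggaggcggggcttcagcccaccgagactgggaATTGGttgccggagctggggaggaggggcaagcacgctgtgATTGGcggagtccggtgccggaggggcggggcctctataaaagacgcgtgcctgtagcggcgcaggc
Fasn (chr11:120824548-120824797, - strand): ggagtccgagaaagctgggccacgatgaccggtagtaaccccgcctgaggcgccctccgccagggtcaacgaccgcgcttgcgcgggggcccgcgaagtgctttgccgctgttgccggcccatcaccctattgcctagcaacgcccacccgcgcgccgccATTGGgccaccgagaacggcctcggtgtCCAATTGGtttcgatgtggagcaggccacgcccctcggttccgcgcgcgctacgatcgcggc
Hmgcs1 (chr13:119690101-119690350, + strand): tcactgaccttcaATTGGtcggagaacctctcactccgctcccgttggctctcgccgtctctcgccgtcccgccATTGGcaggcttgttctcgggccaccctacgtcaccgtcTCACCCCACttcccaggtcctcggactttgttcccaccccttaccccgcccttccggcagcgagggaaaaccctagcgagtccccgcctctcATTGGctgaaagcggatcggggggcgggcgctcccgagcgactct

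Promoter sequences matched 28 of the 35 genes, with 37 starts between them; Fdps, Fdft1, Sqle, Stard4, Abcg1, Scd1 and Scd2 did not match. The forkhead core GTAAACA (other strand TGTTTAC) occurred in 1 of 37 member promoters, that of Elovl6, where it began 123 bases before the start, against 3.17% of all 32851 promoters. The element TCACNCCAC (other strand GTGGNGTGA) occurred in 1 of 37, that of Hmgcs1, 137 bases before the start, against 1.05% of all promoters. A CCAAT box (CCAAT, other strand ATTGG) lay in 21 of 37 member promoters (56.8%) against 33.8% of all, and all 9 matched genes of the squalene-to-cholesterol steps had one. In the Fasn promoter a CCAAT and an ATTGG overlap in 1 run of capitals. The GC box (GGGCGG, other strand CCGCCC) lay in 67.6% of member promoters against 32.7% of all, and CACGTG, its own reverse complement, in 16.2% against 6.02%. A direct repeat as bound by LXR was found in 0 of 37 and in 5 of all 32851 promoters. These are matches of letters in a short window, not binding sites.

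The comparison of WT FoxP3 with mock asked how FoxP3 changes lipid synthesis genes in activated CD4 T cells. Elovl6 rose at all 3 of its probe sets, by 3.28 to 3.78 on the log2 scale, while Scd1, Scd2 and Mylip fell. With limma and Benjamini-Hochberg adjustment over 45037 probe sets, 6 of 74 member probe sets (8.11%) were called at an adjusted p under 0.05, 3 higher and 3 lower, in 4 genes, against 2.66% of all probe sets tested (1.49% higher and 1.17% lower). The members, and the lists below, were chosen with earlier results of these data known. A share above that of all probe sets, here or in later comparisons, may therefore follow from that choice and is no separate support. The 3 higher calls were all at Elovl6. No probe set of the mevalonate steps, of the squalene-to-cholesterol steps or of SREBP control was called. The median difference of the members was -0.05, against -0.013 for all probe sets, and 41 of 74 were below 0 (55.4%, against 53.3% of all). Groups did not overlap at 16 of 74 member probe sets, 5 higher and 11 lower, against 15.1% of all probe sets (7.41% higher and 7.69% lower).

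Arrays carry numbers in their titles, and arrays of the same number deviated together from their group means, so the fit was repeated with the array number as an additive block. With this block 11 of 74 member probe sets were called in WT over mock, 3 higher and 8 lower, against 7.63% of all (3.98% higher and 3.65% lower). The blocked value is given below wherever it changes a call.

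Elovl6, the elongase that extends palmitate to stearate, had the largest rise among the members. At probe set 1417403_at it measured 0.31, 0.00 and 0.00 on mock arrays 1, 2 and 3, and 4.22, 3.77 and 3.66 on WT arrays 1, 2 and 3. The A384T arrays read 3.66, 2.40 and 2.62, and the R397W arrays 0.51 and -0.03. Every WT and A384T array lay above every mock and R397W array, and the mock and R397W arrays overlapped. WT was 13.8-fold higher than mock (log2 difference 3.78 ± 0.30 SE, adjusted p = 0.000156).

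The other Elovl6 probe sets showed the same order of groups. At 1442656_at mock read -0.49, 0.00 and 0.01, WT 3.27, 3.15 and 2.94, A384T 2.36, 2.07 and 1.79, and R397W -0.13 and 0.11. Here the 3 WT arrays also lay above the 3 A384T arrays. WT was 9.73-fold higher than mock (3.28 ± 0.18, adjusted p = 1.84e-05), and at 1417404_at it was 12.8-fold higher (3.68 ± 0.30, adjusted p = 0.000156). These 3 calls held in each of the 11 fits that left out 1 array.

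**Figure D1:**
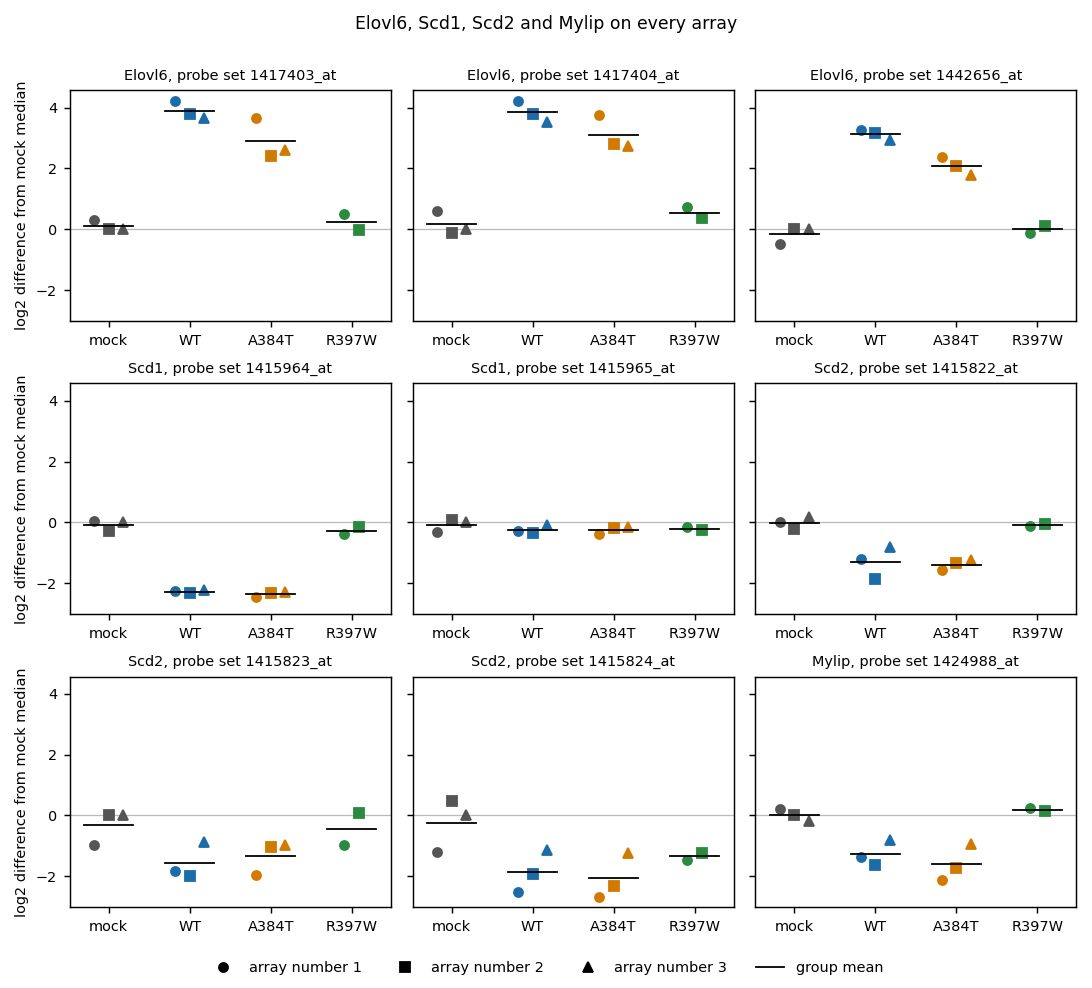
Log2 difference from the mock median (vertical axis) at 9 probe sets of Elovl6, Scd1, Scd2 and Mylip in the mock, WT, A384T and R397W groups (horizontal axis). Each point is 1 array, its shape gives the array number, and lines are group means; Elovl6 is high on all WT and A384T arrays, and Scd1 1415964_at is at -2.24 or lower on them.

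Scd1 and Scd2 encode stearoyl-CoA desaturases, which place a double bond in stearate and palmitate. At Scd1 1415964_at the mock arrays read 0.05, -0.27 and 0.00, WT -2.25, -2.33 and -2.24, A384T -2.46, -2.31 and -2.27, and R397W -0.38 and -0.17. All WT and A384T arrays lay well below the others, with little spread. WT was 4.59-fold lower than mock (-2.20 ± 0.11, adjusted p = 1.34e-05). The other Scd1 probe set, 1415965_at, stayed between -0.37 and 0.09 on all arrays and gave -0.17 (95% interval -0.45 to 0.11, adjusted p = 0.754), so the 2 probe sets of Scd1 disagree in size. The sources used here do not state which transcripts each one reads.

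Scd2 1415822_at read 0.00, -0.23 and 0.17 on mock, -1.22, -1.87 and -0.82 on WT, -1.57, -1.35 and -1.24 on A384T, and -0.11 and -0.05 on R397W. No WT or A384T array reached a mock array. WT was 2.43-fold lower than mock (-1.28 ± 0.23, adjusted p = 0.0144, and 0.000826 with the block). At 1415823_at mock 1 was at -0.99 beside 0.01 and 0.00 for mock 2 and 3, and at 1415824_at mock 1 was at -1.20 beside 0.49 and 0.00. The WT arrays read -1.82, -1.97 and -0.87 at the former and -2.50, -1.92 and -1.13 at the latter, so WT and mock overlapped at both. Their differences of -1.23 ± 0.42 (adjusted p = 0.226) and -1.61 ± 0.49 (0.164) were called only with the block, at adjusted p = 0.00528 and 0.00355. The call at 1415822_at was lost without mock 1 or mock 3 (adjusted p = 0.0527 and 0.0650), with a trended, robust prior (0.10) and when only WT and mock were fitted (0.0742).

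Among the members, the enzymes upstream of elongation differed less from mock than Elovl6 did, and none was called without the block. Acss2, an enzyme outside the members that also makes acetyl-CoA, is described below. Fasn, the fatty acid synthase, read 0.00, -0.31 and 0.02 on mock, -0.34, -0.74 and -0.39 on WT, -0.52, -0.66 and -0.43 on A384T, and -0.03 and -0.24 on R397W. WT arrays lay below mock arrays by a small margin, with -0.39 ± 0.14 (adjusted p = 0.254), which was called only with the block (0.0243). Acaca, acetyl-CoA carboxylase, gave -0.49 and -0.19 at its 2 probe sets, neither called. Acly, which splits citrate into acetyl-CoA, gave -0.19 to 0.16 over 6 probe sets, none called.

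Mylip, the ubiquitin ligase IDOL that marks lipoprotein receptors for degradation and is a known LXR target, read 0.20, 0.00 and -0.18 on mock, -1.37, -1.62 and -0.79 on WT, -2.12, -1.74 and -0.94 on A384T, and 0.23 and 0.15 on R397W. Array 3 was the least low in both groups, yet no WT or A384T array overlapped mock. Mylip was 2.40-fold lower in WT than in mock (-1.26 ± 0.29, adjusted p = 0.0484, and 0.00637 with the block). This call sat at the threshold. It was lost in 8 of 11 fits that left out 1 array (each mock array, WT 1, WT 2, A384T 2, R397W 1 and R397W 2, adjusted p up to 0.187), with array medians set to 0 (0.0502) and with a trended, robust prior (0.152).

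The other LXR genes were not called. Nr1h3, which encodes LXR alpha, gave 0.00 (95% interval -0.22 to 0.23). The cholesterol exporter Abca1 gave 0.13, 0.70 and 0.18 at its 3 probe sets; at the second, 1421840_at, the WT arrays at 0.41, 0.83 and 0.65 lay above the mock arrays at 0.32, -0.54 and 0.00 (adjusted p = 0.274). Abcg1, an exporter to lipoproteins, gave -0.01 and 0.07.

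In the mevalonate steps the differences of WT from mock ran from -0.39 at Pmvk to 0.25 at Hmgcs1 1441536_at, with a median 95% interval of ±0.384 around each. Hmgcs1, the synthase that makes HMG-CoA, gave -0.19 to 0.25 over 5 probe sets. Mvk and Pmvk, the kinases of mevalonate and phosphomevalonate, gave -0.31 and -0.15, and -0.39. Mvd, the decarboxylase that follows, gave 0.02 and 0.07, Idi1, the isomerase of isopentenyl diphosphate, 0.16 and 0.18, and Fdps, which makes farnesyl diphosphate, -0.38 and 0.00. With limma 0 of 14 were called, 1 had an unadjusted p under 0.05 (11.3% of all probe sets had one), and the smallest adjusted p was 0.337, at Pmvk.

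From squalene to cholesterol, 12 of 24 probe sets were above and 12 below 0, with a median of -0.004. With limma 0 of 24 were called, against 2.66% of all, and 4 (16.7%) had an unadjusted p under 0.05, against 11.3% of all. With the block 2 (8.33%) were called, both lower, against 7.63% of all (3.65% lower). Lss, which closes squalene epoxide to lanosterol, read -0.46, 0.11 and 0.00 on mock, -0.72, -1.10 and -0.76 on WT, -1.05, -0.84 and -0.48 on A384T, and -0.21 and -0.31 on R397W at 1420013_s_at. The WT arrays did not overlap mock (-0.74 ± 0.19, adjusted p = 0.0768, and 0.0170 with the block), while the other Lss probe sets gave 0.15 and -0.33, neither called. Dhcr7, the reductase that yields cholesterol, read 0.12, -0.18 and 0.00 on mock, -0.13, -0.78 and -0.53 on WT, -0.04, -0.61 and -0.38 on A384T, and 0.16 and -0.18 on R397W. WT overlapped mock, and the difference (-0.46 ± 0.19, adjusted p = 0.390) was called only with the block (0.0190).

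Among the remaining sterol enzymes, Sqle, the squalene epoxidase, read 0.00, -0.51 and 0.02 on mock and -0.16, -1.51 and -0.35 on WT, so that WT 2 stood apart and the difference was -0.51 (95% interval -1.21 to 0.18). Fdft1, squalene synthase, gave -0.12 to 0.03 over 4 probe sets. The lanosterol demethylase Cyp51 gave -0.38 to 0.02, the sterol reductase Tm7sf2 0.07, the methyl oxidase Msmo1 0.05 at both probe sets, and Nsdhl, which removes the carboxyl group, 0.37. Hsd17b7, a sterol ketone reductase, gave -0.08 to 0.21, the isomerase Ebp 0.20, and the desaturase Sc5d -0.41 to 0.10. None of these was called.

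In the control of SREBP, WT over mock gave -0.30 to 0.26, and limma called 0 of 12 probe sets, against 2.66% of all. At an unadjusted p under 0.05 there were also 0, against 11.3% of all. Srebf1 and Srebf2, which encode the SREBP factors, gave -0.30, and -0.27 and -0.22. Scap, their escort, gave -0.08 and 0.06. Insig1 and Insig2, the proteins that retain SCAP in the endoplasmic reticulum, gave 0.26, and -0.25 to 0.16. Stard4, a carrier of cholesterol between membranes, gave -0.27 to 0.10.

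**Figure D2:**
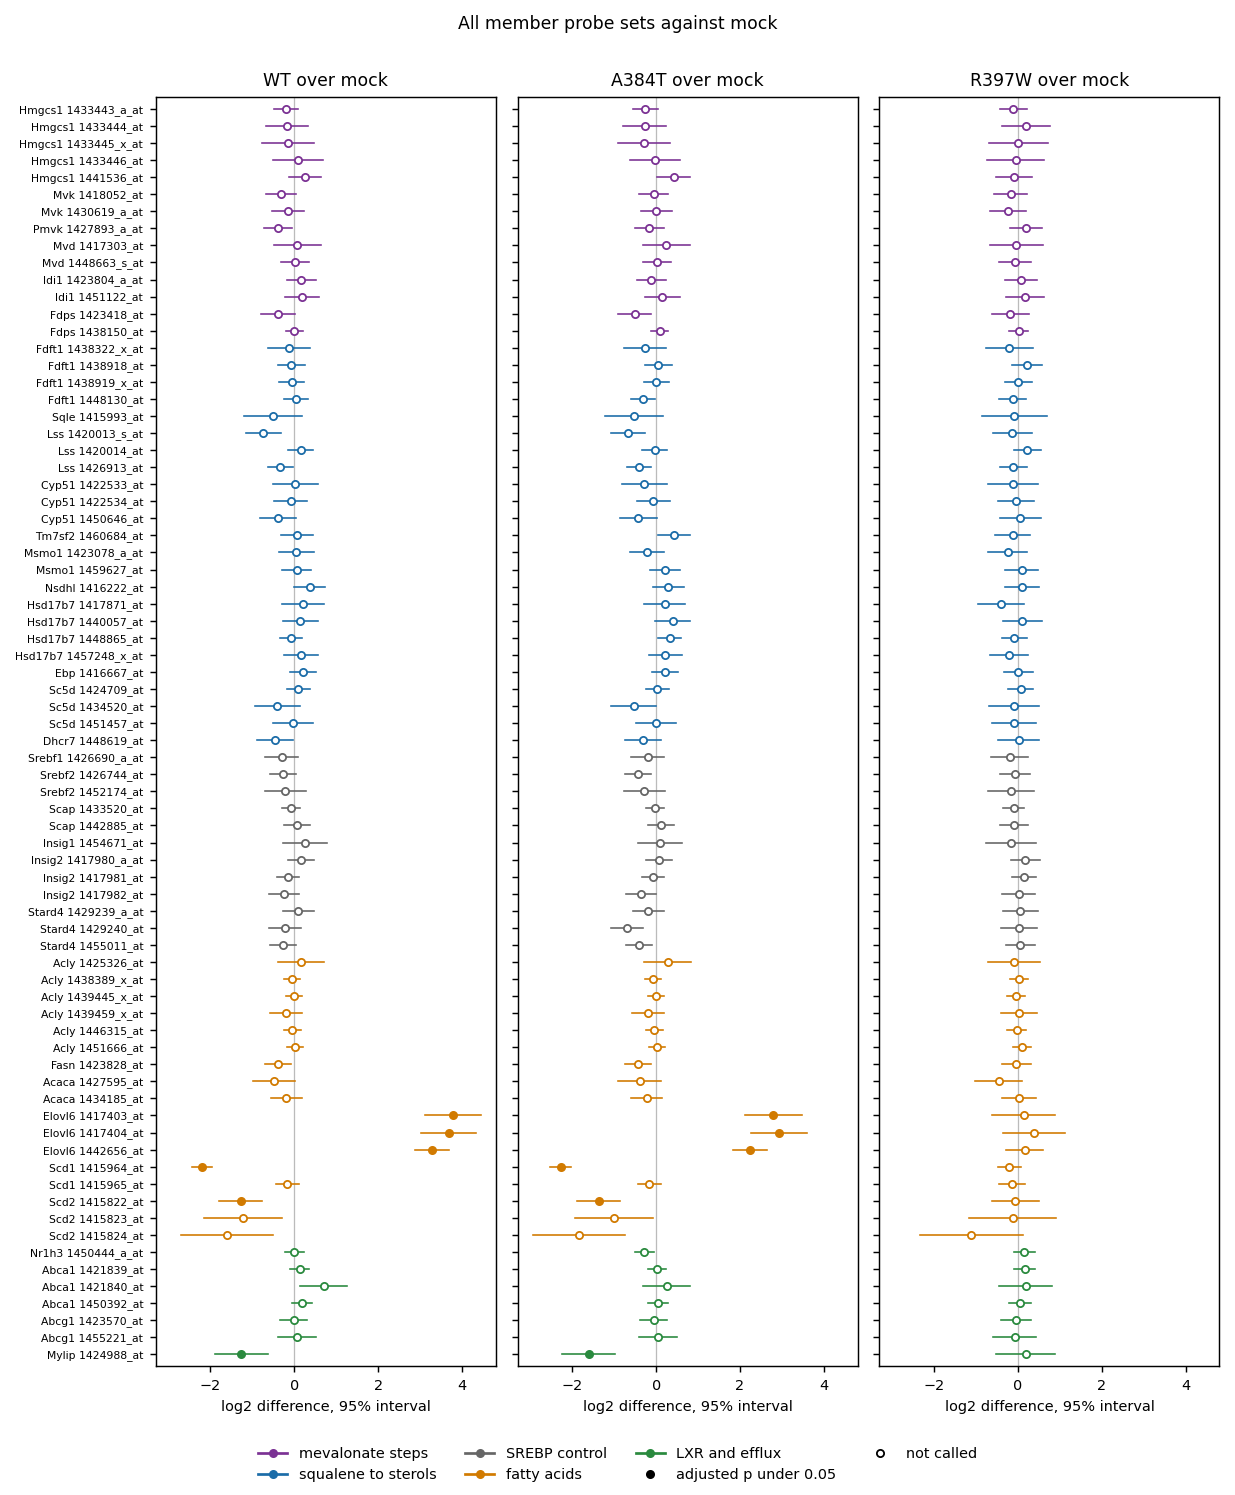
Log2 difference from mock (horizontal axis) with its 95% interval for each of the 74 member probe sets (rows, coloured by role) in WT, A384T and R397W. Filled points have an adjusted p under 0.05: 6 in WT, 6 in A384T and 0 in R397W, all at Elovl6, Scd1, Scd2 and Mylip.

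The comparison of A384T with mock, which shares the mock arrays with the one above, asked what this mutant form does to the same genes. Elovl6 was higher at all 3 probe sets, and Scd1, Scd2 and Mylip were lower. With limma 6 of 74 member probe sets were called, 3 higher and 3 lower, against 2.17% of all (1.25% higher and 0.917% lower). With the block 13 were called, 3 higher and 10 lower, against 7.33% (3.9% higher and 3.43% lower). The median difference of the members was -0.06, against -0.0067 for all, and groups did not overlap at 20 of 74 (5 higher, 15 lower), against 14.3% of all (7.34% higher and 6.95% lower).

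Elovl6 was 6.94-fold higher than mock at 1417403_at (2.79 ± 0.30, adjusted p = 0.00097), 7.62-fold at 1417404_at (2.93 ± 0.30, 0.000648) and 4.71-fold at 1442656_at (2.23 ± 0.18, 0.00022). Scd1 1415964_at was 4.84-fold lower (-2.27 ± 0.11, adjusted p = 1.67e-05), and its other probe set gave -0.16 (0.740). Scd2 1415822_at was 2.58-fold lower (-1.37 ± 0.23, adjusted p = 0.0114, and 0.000579 with the block). Its probe sets 1415823_at and 1415824_at gave -1.01 (0.371, and 0.0172 with the block) and -1.83 (0.111, and 0.0018 with the block). Mylip was 3.05-fold lower (-1.61 ± 0.29, adjusted p = 0.0170, and 0.00172 with the block). The Elovl6 and Scd1 calls held in all 11 fits without 1 array. The Scd2 call was lost without mock 3 or A384T 1 (adjusted p = 0.0539 and 0.0521), and the Mylip call without mock 1, mock 2, A384T 1 or A384T 2 (up to 0.0745); both were lost with a trended, robust prior (0.0936 and 0.0797), and Mylip when only A384T and mock were fitted (0.0618).

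With the block, single probe sets of further sterol and SREBP genes were lower in A384T than in mock. Stard4 1429240_at read -0.35, 0.01 and 0.00 on mock, -0.35, -0.51 and -0.15 on WT, -1.09, -0.47 and -0.87 on A384T, and -0.20 and 0.01 on R397W. The A384T arrays lay below all mock arrays, and the WT arrays did not (-0.69 ± 0.17, adjusted p = 0.0826, and 0.0135 with the block); its probe set 1455011_at gave -0.40 and was called in neither fit. Srebf2 1426744_at read -0.17, 0.32 and 0.00 on mock, -0.30, -0.13 and -0.22 on WT, -0.51, -0.31 and -0.33 on A384T, and -0.19 and 0.15 on R397W. The A384T arrays were the lowest, with -0.43 ± 0.14 (adjusted p = 0.209, and 0.0239 with the block). At the other Srebf2 probe set, 1452174_at, A384T overlapped mock and WT, with -0.29 from mock, called in neither fit.

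Sc5d 1434520_at read 0.31, -0.14 and 0.00 on mock, -0.23, -0.68 and -0.14 on WT, -0.50, -0.82 and -0.12 on A384T, and 0.33 and -0.40 on R397W. Array 2 was the lowest of its group in mock, WT, A384T and R397W, and A384T overlapped mock (-0.54 ± 0.24, adjusted p = 0.424, and 0.0376 with the block). The other Sc5d probe sets, 1424709_at and 1451457_at, gave 0.03 and 0.00. Lss 1420013_s_at gave -0.67 (0.122, and 0.0295 with the block), while 1420014_at and 1426913_at of Lss gave -0.04 and -0.41 and were called in neither fit. Fasn gave -0.44 (0.186, and 0.0147 with the block). The differences of the other mevalonate, sterol and SREBP genes from mock lay between -0.53 at Sqle and 0.42 at Tm7sf2, and none was called in either fit. Nr1h3 read 0.14, 0.00 and -0.12 on mock and -0.29, -0.21 and -0.31 on A384T, which did not overlap, with -0.28 (95% interval -0.50 to -0.05, adjusted p = 0.273).

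Set directly against WT, A384T had the lower Elovl6 value. At equal array numbers A384T minus WT was -0.55, -1.37 and -1.04 at 1417403_at, -0.44, -0.99 and -0.81 at 1417404_at, and -0.92, -1.07 and -1.15 at 1442656_at, so A384T was lower in 3 of 3 pairs at each probe set. The differences were -0.99 ± 0.30, -0.75 ± 0.30 and -1.05 ± 0.18. Without the block none was called (adjusted p = 0.737, 1 and 0.104), and with it all 3 were (0.0259, 0.0335 and 0.0264). At 1442656_at, the one Elovl6 probe set where the groups did not overlap, A384T was 2.07-fold lower (95% interval of the log2 difference -1.45 to -0.65).

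These Elovl6 probe sets were the only member calls between A384T and WT. With limma 0 of 74 were called without the block, against 0.102% of all, and 3 with it, all lower, against 0.515% (0.269% lower); 7 of 74 had an unadjusted p under 0.05, against 4.1% of all. The difference at Scd1 1415964_at was -0.08 (95% interval -0.32 to 0.17), at Scd2 1415822_at -0.09 (-0.59 to 0.42) and at Mylip -0.34 (-0.98 to 0.29), so a Scd1 difference beyond 0.32 on the log2 scale lay outside the interval, whereas Mylip was measured less precisely. Groups did not overlap at 5 of 74 probe sets, against 7.46% of all (3.97% higher and 3.49% lower): Tm7sf2 and Hsd17b7 1448865_at higher in A384T, and Elovl6 1442656_at, Srebf2 1426744_at and Nr1h3 lower.

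R397W, compared with the same mock arrays, had 0 of 74 member probe sets called by limma in either fit, as had all 45037 probe sets (0%). At an unadjusted p under 0.05 there were 0 of 74, against 1.84% of all. The intervals bound what 2 arrays could show. Elovl6 gave 0.14 (95% interval -0.61 to 0.89), 0.38 (-0.36 to 1.11) and 0.16 (-0.29 to 0.61), and each upper bound lay below the lowest WT or A384T array at that probe set. Scd1 1415964_at gave -0.20 (-0.48 to 0.08), Scd2 1415822_at -0.06 (-0.62 to 0.50) and Mylip 0.18 (-0.53 to 0.89).

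One Scd2 probe set behaved otherwise. At 1415824_at R397W read -1.45 and -1.24, below the lowest mock array (-1.20), with -1.11 (95% interval -2.33 to 0.12), and the WT and A384T arrays read -2.50, -1.92 and -1.13, and -2.67, -2.31 and -1.23. R397W and mock did not overlap at 3 of 74 member probe sets, against 11.9% of all (6.42% higher and 5.48% lower); the others were Idi1 1451122_at, higher at 0.16, and Srebf1, lower at -0.20. The median difference of the members was -0.04, against 0.0038 for all.

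R397W differed from WT at Elovl6, Scd1 and Scd2. With limma 5 of 74 member probe sets were called, 2 higher and 3 lower in R397W, against 1.75% of all (0.759% higher and 0.99% lower). With the block there were 8, 5 higher and 3 lower, against 5.78% (2.71% higher and 3.07% lower). The 2 R397W arrays and the WT arrays did not overlap at 19 of 74, 11 higher and 8 lower, against 23.3% of all (12.9% higher and 10.4% lower). Elovl6 was 12.5-fold, 9.84-fold and 8.73-fold lower in R397W at its 3 probe sets (adjusted p = 0.000589, 0.000993 and 7.38e-05). Scd1 1415964_at was 3.99-fold higher (2.00 ± 0.12, adjusted p = 7.36e-05), but 0.0645 with a trended, robust prior. Scd2 1415822_at was 2.33-fold higher (1.22 ± 0.25, adjusted p = 0.0425), a call that held in 1 of 11 fits without 1 array, the one without WT 3, and was lost with that prior (0.200) and when only R397W and WT were fitted (0.240). With the block, Scd2 1415822_at had an adjusted p of 0.00194. Called only with the block were Mylip (1.45 ± 0.32, adjusted p = 0.0567, blocked 0.00512), Scd2 1415823_at (1.11, 0.449, blocked 0.0105) and Dhcr7 (0.47, 0.520, blocked 0.0453).

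Against A384T, R397W had 6 of 74 called, 3 higher and 3 lower, against 1.47% of all (0.615% higher and 0.853% lower). With the block 12 were called, 8 higher and 4 lower, against 5.7% (2.64% higher and 3.07% lower). The groups did not overlap at 27 of 74, 19 higher and 8 lower, against 22.7% of all (12.2% higher and 10.4% lower). Elovl6 was at -2.65, -2.55 and -2.08 (adjusted p = 0.00389, 0.00435 and 0.000959), Scd1 1415964_at at 2.07 (9.26e-05), Scd2 1415822_at at 1.31 (0.0347) and Mylip at 1.79 (0.0231). With the block, the adjusted p was 0.00141 at this Scd2 probe set and 0.00174 at Mylip. Without R397W 2, the first 2 Elovl6 calls were lost (adjusted p = 0.0556 and 0.0591) and 2 member probe sets were called in all. The Scd2 call held in 2 of 11 fits without 1 array, those without WT 2 and WT 3, and the Mylip call in 7 of 11, being lost without A384T 1, A384T 2, R397W 1 or R397W 2. A trended, robust prior lost the Scd1, Scd2 and Mylip calls (adjusted p = 0.0630, 0.171 and 0.0971). Fitting only R397W and A384T lost Elovl6 at 1417403_at and 1417404_at (0.102 and 0.0739) and Mylip (0.171).

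Further member probe sets were called in R397W over A384T only with the block. Stard4 gave 0.71 and 0.46 at 1429240_at and 1455011_at (blocked adjusted p = 0.0236 and 0.0497), and Cyp51 1450646_at 0.48 (0.0488). Fasn gave 0.40 (0.0332) and Scd2 1415823_at 0.89 (0.0271), and all of these were higher in R397W. The other probe sets of Stard4 and Cyp51 were called in neither fit, with differences down to 0.24 and 0.02. Hmgcs1 1441536_at gave -0.51 (0.0189), with A384T at 0.49, 0.50 and 0.07 and R397W at 0.00 and -0.32. Its groups did not overlap, but the mean over the 5 Hmgcs1 probe sets gave 0.075, in the other direction.

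Members differed between arrays of one group as well as between groups. Array 2 was the lowest of its group at 16 of 24 sterol-enzyme probe sets in WT (66.7%, against 29.7% of all probe sets), 15 of 24 in A384T (62.5%, against 34%), 13 of 24 in mock (54.2%, against 31.2%) and 18 of 24 in R397W (75%, against 50.6%, with 2 arrays). This did not hold for every role group. In the mevalonate steps array 2 was the lowest at 6 of 14 probe sets in WT (42.9%) and 9 of 14 in A384T (64.3%). There array 1 was the lowest at 8 of 14 in mock (57.1%, against 32.1% of all) and 10 of 14 in R397W (71.4%, against 47%). The sterol medians of WT 2, A384T 2 and R397W 2 were -0.129, -0.117 and -0.104, and that of mock 2 was only -0.010. A list of cell cycle genes moved with other arrays: its median was 1.05, 0.18 and 0.11 on WT 1, 2 and 3, 0.72, 0.33 and 0.08 on A384T 1, 2 and 3, and 0.09 and 0 on R397W. In WT over mock 2 of its 36 probe sets were called higher, and 12 with the block, against 1.49% and 3.98% of all. In A384T over mock these counts were 1 and 9, against 1.25% and 3.9% of all. With the block 11 were lower in R397W than in WT and 8 lower than in A384T, against 3.07% of all in each, and 0 without it. The part of these genes in the member results was not tested. The block on the array number, whose calls are given above, takes out what arrays of 1 number share. Without the arrays numbered 1 the counts of called members were 4 in WT over mock and 4 in A384T over mock, where the Scd2 and Mylip calls were lost.

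**Figure D3:**
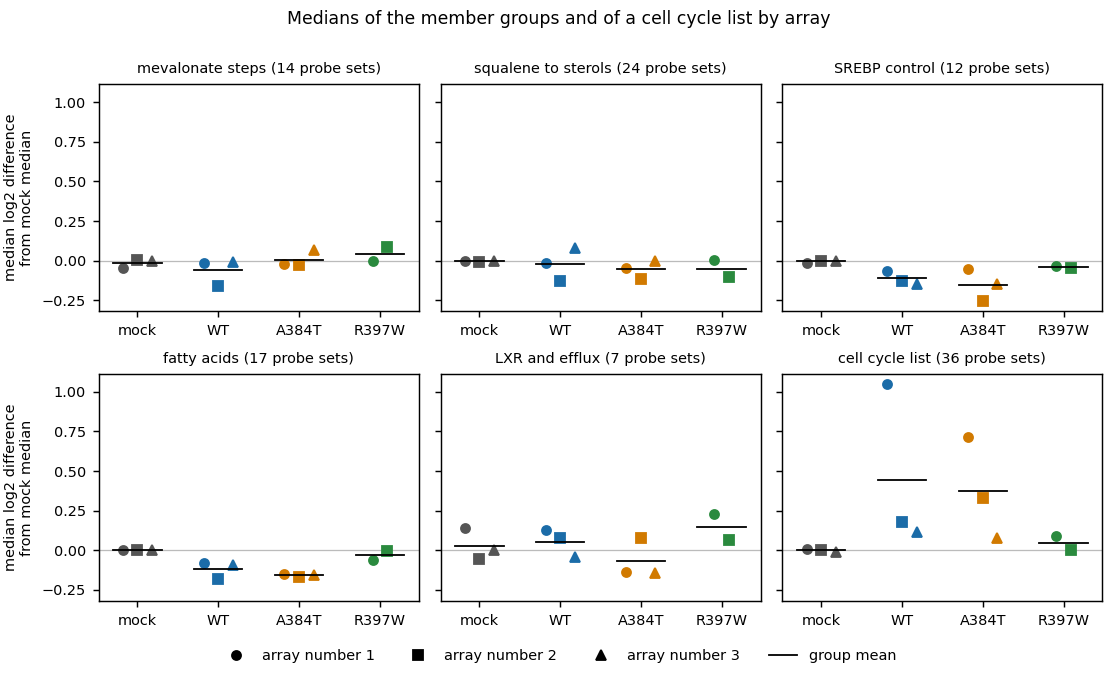
Median log2 difference from the mock median (vertical axis) of each role group and of the cell cycle list on every array, by group (horizontal axis); shapes give the array number and lines the mean of a group's arrays. The role group medians stay between -0.254 and 0.230, while the cell cycle list reaches 1.05 on WT 1 and 0.72 on A384T 1.

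Other lipid genes outside the 35 were measured through 2 further lists. Of other lipid synthesis genes (65 probe sets of 26 genes), 0 were called higher and 6 lower in WT over mock, 0 and 4 in A384T over mock, and 0 in R397W over mock. Of genes that take up, store or move sterols (45 probe sets of 18 genes), 2 were called higher and 3 lower in WT over mock, 2 and 3 in A384T over mock, and 0 in R397W over mock. With the block these became 2 higher and 7 lower, 2 and 7, and 0 for synthesis, and 2 and 6, 3 and 3, and 0 for handling. Among all probe sets, 1.49% were called higher and 1.17% lower in WT over mock, and 1.25% and 0.917% in A384T over mock. With the block, these shares of all probe sets were 3.98% and 3.65%, and 3.9% and 3.43%. The median differences of the 2 lists in WT over mock were -0.034 and -0.084.

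Acss2, which makes acetyl-CoA from acetate, read 0.00, -0.15 and 0.00 on mock, -1.44, -1.41 and -0.89 on WT, -1.06, -1.19 and -1.07 on A384T, and -0.46 and -0.25 on R397W at 1422479_at. At this probe set R397W lay between the groups, but at 1422478_a_at it read 0.25 and 0.10, above every mock array, and at 1446542_at -0.13 and -0.53, which overlapped mock. At 1422479_at Acss2 fell in WT (-1.20 ± 0.15, adjusted p = 0.00175) and in A384T (-1.06, 0.00421), and the other probe sets gave -0.66 and -1.12 in WT (adjusted p = 0.0450 and 0.00231) and -0.51 and -0.89 in A384T (0.136 and 0.00968). Elovl7, another fatty acid elongase, read 0.00, 0.00 and -0.33 on mock, -1.72, -2.11 and -1.34 on WT, -1.50, -1.79 and -1.48 on A384T, and -0.16 and -0.78 on R397W at 1424097_at. It fell there in both comparisons with mock (-1.61 ± 0.22, adjusted p = 0.00304 in WT; -1.48, 0.00571 in A384T). Its other 5 probe sets gave smaller values, -0.63 to 0.16 in WT and -0.68 to 0.00 in A384T, none called without the block.

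Acsl4, which activates arachidonate and other polyunsaturated fatty acids, gave -1.23 ± 0.15 in WT (adjusted p = 0.00201) and -0.93 in A384T (0.0113) at 1451828_a_at, with no overlap with mock. Its probe set 1433531_at gave -0.51 and -0.89, called in neither fit. At 1418911_s_at, the arrays numbered 1 stood apart in every group, at -2.56 in mock, -2.95 in WT, -2.62 in A384T and -1.91 in R397W. Scarb1, a receptor for high-density lipoprotein, gave -1.21 ± 0.21 in WT (adjusted p = 0.0129) and -1.40 in A384T (0.00674) at 1437378_x_at, and its other probe sets were called in both as well. Lpcat3, which puts polyunsaturated chains into phospholipids, gave -0.63 ± 0.14 in WT (adjusted p = 0.0480) and -0.25 in A384T (0.596).

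At the probe sets named here, Npc2 and Lipa, which act on cholesterol in lysosomes, were above mock in both comparisons. Each was called in only 1 of them. Not called were Npc2 1455768_at in A384T (0.26, adjusted p = 0.276) and Lipa 1450872_s_at in WT (0.33, 0.235). Npc2 1455768_at read 0.00, -0.06 and 0.13 on mock, 0.61, 0.60 and 0.50 on WT, 0.31, 0.22 and 0.30 on A384T, and 0.29 and 0.10 on R397W, and was called in WT (0.55 ± 0.09, adjusted p = 0.0116). Lipa 1450872_s_at read -0.01, 0.00 and 0.17 on mock, 0.28, 0.54 and 0.34 on WT, 0.80, 0.97 and 0.76 on A384T, and 0.22 and -0.05 on R397W, and was called in A384T (0.79 ± 0.11, adjusted p = 0.00546). WT and A384T did not overlap at either, but neither difference between them was called (Npc2 -0.29, adjusted p = 0.808; Lipa 0.46, 0.437). Hsd17b12, a reductase of the elongation cycle, gave 0.85 ± 0.22 in WT and 0.80 in A384T at 1450011_at, called only with the block (adjusted p = 0.00528 and 0.00849).

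**Figure D4:**
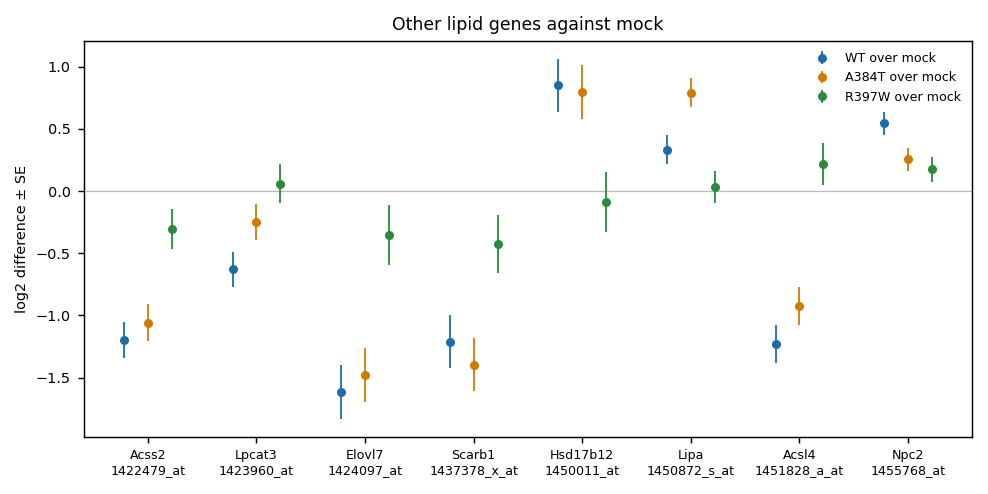
Log2 difference from mock with its standard error (vertical axis) for 8 other lipid genes at their probe set with the smallest p (horizontal axis), in WT, A384T and R397W. Acss2, Elovl7, Scarb1 and Acsl4 lie below 0 in WT and A384T, and the R397W values lie between -0.43 and 0.22.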

How the data were processed

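RNA from sorted cells was hybridised to Affymetrix arrays, 1 array per sample, 11 in all. The values the authors deposited are log2 values from RMA (per the submitters' processing notes, without a version), a method with background correction, quantile normalization and 1 summary per probe set. Because the mock median equalled 0 at 100% of probe sets, values must have been centred on mock. Neither that step nor the logarithm's base is stated, and base 2 was taken. Centring loses levels, so no filter on low values was possible and genes cannot be ranked by level. The number of arrays limits precision: the median standard error was 0.139 for 3 arrays against 3 and 0.155 for 3 against 2.

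After 64 control probe sets were left out, 45037 were fitted with limma 3.58.1 (R 4.3.3) as 1 mean per group over all 11 arrays (7 residual degrees of freedom, 5 with the block). In 6 contrasts p-values were adjusted by Benjamini-Hochberg over all probe sets, and intervals are at 95%. The fit was checked on simulated data with independent noise on each array. That check therefore did not cover deviations shared by arrays of the same number. Probe sets were named from the platform annotation (932 have several symbols and 9211 none listed, and none of these was used). Values on every array were given for member probe sets called in any contrast with or without the block, and otherwise for examples; other lipid genes were limited to the 8 with the smallest p. Members outside the rule (Sqle, Nr1h3, Abca1) were chosen after their values were seen.

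Deviations from group means correlated over 0.1 in 15 of 15 pairs of arrays of the same number from different groups (0.107 to 0.718, median 0.496). The title numbers were therefore taken to pair the arrays. Pairs of different numbers did so in 7 of 30 (median -0.363). Deviations cancel within a group, so these negative values follow in part from the positive ones and are no separate support. Alternatives were the block, a trended and robust prior, only the groups compared, other array scales, 1 value per gene, a filter on spread and leaving out arrays. Promoters came from RefSeq (GRCm38.p6). Figures used Python 3.11.15 and matplotlib 3.10.9. Members and lists were chosen with earlier results of these data known.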

Additional observations from a re-analysis of the deposited data

How the results depend on the processing

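The array number as a replicate block raised the counts of called member probe sets to 13 in A384T over mock, 11 for WT over mock, 3 in A384T over WT, 12 in R397W over A384T and 8 for R397W over WT, and left 0 for R397W over mock. A trended and robust prior gave 3 calls for R397W against either WT or A384T, as did the mean of a gene's probe sets, counted in genes. Fitting only the groups compared gave 3 in R397W over A384T. The most variable probe set per gene gave 3 genes for WT and A384T over mock, and 3 for R397W against each of these; these settings count genes, not probe sets. Leaving out 1 array gave 4 to 7 in A384T over mock, 4 to 6 for WT over mock, 0 for R397W over mock, 0 in A384T over WT, 2 to 6 in R397W over A384T and 4 to 6 for R397W over WT. The direction reversed in 1 named result: Hmgcs1 1441536_at in R397W over A384T was at 0.31 with the gene's most variable probe set and at 0.075 with the mean of its probe sets, which take in other probe sets. Of 54 counts over the settings other than leaving out 1 array, 40 stayed within 1.5 times the main count. These 40 include counts of 0 that stayed 0, as in R397W over mock. Settings that count genes were also set against the main count of probe sets, so the 40 do not measure how stable the calls are. A filter on mean level was not run, since levels are lost, and the filter on spread took its place. With 2 R397W arrays, and no levels to show which probe sets lie near background, small differences could not be resolved.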
